A study of Mus musculus with 48 samples.

Results

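The IL-2 receptor is built from 3 chains, and the genes of all 3, Il2ra, Il2rb and Il2rg, were taken by their symbols from the expression matrices, 3 of 53345 genes. They were followed across Tregs (regulatory T cells) of 8 treatment groups with 4 mice each and Tcons (conventional CD4 T cells) of the same 8 groups with 2 mice each, 48 RNA-seq libraries in all. The alpha chain, CD25, encoded by Il2ra, has no signalling domain of its own and raises the affinity of the receptor for IL-2. The beta chain (CD122, Il2rb) and the common gamma chain (CD132, Il2rg) carry the signal through the kinases Jak1 and Jak3 to the transcription factor STAT5. Tregs are known for constitutive CD25, the beta chain is also part of the IL-15 receptor, and the gamma chain is also part of the receptors for IL-4, IL-7, IL-9, IL-15 and IL-21.

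The animals were female C57BL/6 mice, an inbred laboratory strain, 8 to 12 weeks old. Each mouse received 2 intraperitoneal doses of 500 µg of antibody, 1 day before and on the day of the IL-2 injection. The antibody was either the isotype control LTF-2 or M5/114, which binds MHC class II and blocks the display of antigen to the T cell receptor of CD4 T cells. On day 0 they received 25 µg of an IL-2 molecule (WT IL-2, H16R or the 3x mutein) in a single subcutaneous dose, or PBS. All of these molecules were human IL-2 joined to a human IgG1 Fc without effector function, H16R with the single substitution H16R and 3x with D20A, V91K and M104V. Spleens were taken on day 4. Tregs were the cells that bound in a positive selection for CD25, and Tcons were the CD25- cells of the flow-through from the same spleens. Il2ra levels in Tregs were therefore measured among cells selected for its product, and those in Tcons among cells that were not bound, so that Il2ra between the 2 cell types is given without a test. In bulk libraries such as these, fewer cells that express a gene and less RNA per cell cannot be told apart.

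Library totals were 18.28 to 51.24 M expected counts in Tregs and 31.31 to 51.95 M in Tcons, with the lowest totals in Tregs of isotype-treated PBS mice (18.28 to 34.58 M). Foxp3, the lineage factor of Tregs, was at 183 to 311 FPKM in Treg libraries and 12.8 to 49.2 FPKM in Tcon libraries. Every Treg library was thus above every Tcon library in Foxp3, which is no measure of other cells in a library. FPKM are fragments per kilobase of transcript scaled to the mapped reads of the library, a level that can be compared between genes. In 2 Treg libraries markers of other cells were high. The summed FPKM of 6 B cell markers reached 271 in isotype PBS replicate 1 and 266 in MHC II block WT IL-2 replicate 1, against 15.5 to 66.6 in the groups without either library. The summed FPKM of 6 myeloid markers reached 272 in MHC II block WT IL-2 replicate 1.

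On the mouse genome GRCm38, Il2ra (ENSMUSG00000026770.5) lies on chromosome 2 at chr2:11642807-11693193 on the plus strand. Il2rb (ENSMUSG00000068227.9) lies at chr15:78479256-78495271 on the minus strand, and Il2rg (ENSMUSG00000031304.18) at chrX:101264378-101268255 on the minus strand. Each value is a sum over the exons of the gene. Gene Gm37881 overlaps Il2ra on the same strand and had 0.249% to 1.5% of its counts, and Gm20489 overlaps Il2rg on the same strand with 0% to 0.0678% of its counts. To show the sequence in front of the chains that changed most and least with 3x against PBS in Tregs, the bases just before the start of transcription are printed. These chains are the 2 of 3 members that have an entry among the RefSeq promoters, Il2ra at chr2:11642542-11642791 and Il2rg at chrX:101268256-101268505 on GRCm38.p6. The bases are written 5′ to 3′ on the strand of the gene. Capitals mark matches to the motifs searched.
Il2ra: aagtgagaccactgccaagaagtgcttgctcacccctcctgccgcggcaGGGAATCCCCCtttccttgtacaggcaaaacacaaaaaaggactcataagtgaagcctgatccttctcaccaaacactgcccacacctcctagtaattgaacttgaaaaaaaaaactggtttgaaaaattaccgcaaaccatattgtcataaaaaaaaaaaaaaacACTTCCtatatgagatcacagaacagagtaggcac
Il2rg: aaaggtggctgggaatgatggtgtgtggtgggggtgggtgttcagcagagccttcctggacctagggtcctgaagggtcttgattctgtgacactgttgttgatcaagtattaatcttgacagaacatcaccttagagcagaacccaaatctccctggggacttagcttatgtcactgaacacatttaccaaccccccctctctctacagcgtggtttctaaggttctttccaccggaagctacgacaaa
The motifs were searched on both strands. The STAT motif TTCNNNGAA was found in neither window, and 7.02% of 32851 promoter windows of the same length hold it. The NF-kB motif GGGNNNNNCC had 2 overlapping matches in Il2ra, at 201 to 192 and 200 to 191 bases before the start, and 45.8% of windows hold it. The ETS motif ACTTCC matched in Il2ra at 35 to 30 bases before the start, and 19.7% of windows hold it. These windows are 42.4% GC in Il2ra and 49.2% GC in Il2rg. A match describes the letters alone, and other spellings of these motifs were not searched and are not marked.

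In Tregs all 3 chains were among the abundant transcripts. Averaged over the 32 Treg libraries, Il2rg was highest at 365 FPKM, Il2rb followed at 268 FPKM and Il2ra was at 120 FPKM, and 98.7%, 98.3% and 96% of the 12390 genes tested had a lower mean. In Tcons the order of the chains was the same but the distances were not. Il2rg was at 276 FPKM and Il2rb at 133 FPKM, with 98.5% and 96.7% of 12529 genes below them, whereas Il2ra was at 10.9 FPKM, with 53.6% of genes below it.

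Il2ra, the affinity chain, had the widest range of Treg group means relative to its level, from 92.5 to 190 FPKM over the 8 groups. In isotype-treated mice given PBS, the 4 mice had 87.8, 96.3, 93.2 and 100 FPKM, and with WT IL-2 they had 105, 101, 102 and 113 FPKM. With H16R the values were 114, 119, 127 and 106 FPKM, and with 3x they were 179, 134, 140 and 154 FPKM. Every IL-2-treated mouse was above every PBS mouse, WT IL-2 and H16R overlapped, and all 3x mice were above all others of this arm. In mice that received the MHC II block, PBS gave 101, 89.4, 88.6 and 91 FPKM and WT IL-2 gave 75.8, 91.6, 108 and 95.1 FPKM, on both sides of the PBS values. H16R gave 116, 112, 119 and 122 FPKM, and 3x gave 202, 150, 192 and 216 FPKM. Here H16R lay above WT IL-2 in every mouse and 3x above H16R in every mouse.

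Il2rb, the signalling chain shared with the IL-15 receptor, had group means of 210 to 353 FPKM. That range was smaller than the range of Il2ra relative to its level, though wider in FPKM. In the isotype arm, PBS mice had 234, 221, 243 and 228 FPKM and WT IL-2 mice 252, 264, 252 and 255 FPKM. H16R mice had 280, 254, 249 and 255 FPKM, and 3x mice had 365, 267, 280 and 307 FPKM, with replicate 1 above the other 3. H16R overlapped both other molecules, 3x was above WT IL-2 in every mouse, and all IL-2-treated mice were above the PBS mice. Under the MHC II block, PBS gave 220, 227, 210 and 217 FPKM and WT IL-2 gave 197, 220, 211 and 212 FPKM, with overlapping values. H16R gave 309, 285, 336 and 330 FPKM and 3x gave 363, 317, 363 and 368 FPKM. Both muteins were above WT IL-2 in every mouse of this arm, and they overlapped each other through replicate 2 of 3x.

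Il2rg, the common gamma chain, was the most even of the chains relative to its level, with group means of 315 to 420 FPKM. Isotype-treated PBS mice had 304, 312, 331 and 316 FPKM, WT IL-2 mice 369, 361, 384 and 374 FPKM, H16R mice 383, 380, 389 and 358 FPKM and 3x mice 358, 362, 375 and 360 FPKM. The IL-2 molecules overlapped one another and all lay above PBS. Under the MHC II block, PBS gave 322, 319, 307 and 312 FPKM and WT IL-2 gave 318, 361, 335 and 331 FPKM, which overlapped. H16R gave 420, 383, 428 and 450 FPKM and 3x gave 443, 394, 416 and 412 FPKM, above both other groups of the arm and overlapping each other.

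**Figure D1:**
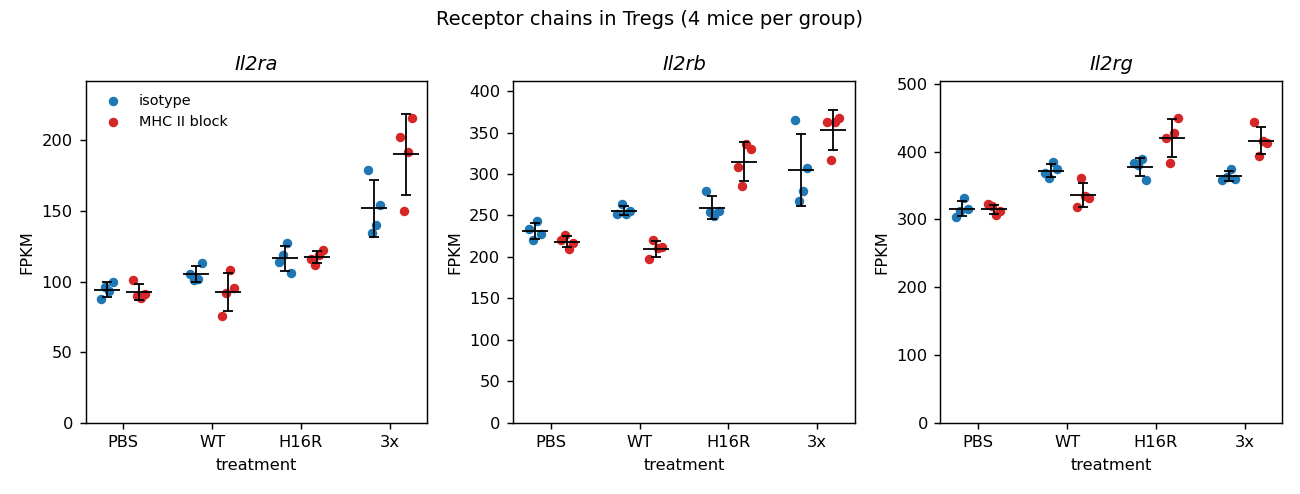
Levels of Il2ra, Il2rb and Il2rg in Tregs, in FPKM on a linear axis for each chain, by treatment and antibody. Each dot is 1 mouse and the bars are the mean ± SD of 4 mice, and the 3x groups of Il2ra stand above the others, with means of 152 ± 19.9 FPKM (isotype) and 190 ± 28.2 FPKM (MHC II block) against 92.5 to 117 FPKM in the other groups.

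When the 8 Treg groups were ordered by mean level, few neighbours were separated by their values. For Il2ra, the 3 lowest groups were MHC II block PBS at 92.5 ± 5.8, MHC II block WT IL-2 at 92.7 ± 13.3 and isotype PBS at 94.4 ± 5.33 FPKM (SD, n = 4). The only neighbours in the order whose values did not overlap were isotype PBS and isotype WT IL-2 (105 ± 5.22 FPKM), and MHC II block H16R (117 ± 4.44 FPKM) and isotype 3x (152 ± 19.9 FPKM). For Il2rb, the only such gap was between isotype PBS (231 ± 9.2 FPKM) and isotype WT IL-2 (255 ± 5.6 FPKM), and the highest group was MHC II block 3x at 353 ± 24 FPKM. For Il2rg, the only gap lay between isotype H16R (378 ± 13.5 FPKM) and its neighbour MHC II block 3x (416 ± 20.6 FPKM), while MHC II block H16R, the highest at 420 ± 28.1 FPKM, reached down to 383 FPKM and overlapped both. Isotype WT IL-2 (372 ± 9.64 FPKM) and isotype 3x (364 ± 7.36 FPKM) thus stood side by side for the gamma chain, while for the alpha chain they were at 105 and 152 FPKM.

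The first question was how each IL-2 molecule changed the receptor chains against PBS. With isotype antibody, all 3 chains were higher with all 3 molecules. For Il2ra the log2 fold change was 0.24 in the WT IL-2 group (SE 0.094, edgeR quasi-likelihood test with Benjamini-Hochberg adjusted p = 0.0358), 0.44 with H16R (adjusted p = 0.000235) and 0.81 with 3x (adjusted p = 3.83e-08), the last a 1.76-fold rise. Il2rb was higher by 0.20 (adjusted p = 0.0115), 0.26 (adjusted p = 0.000802) and 0.50 (adjusted p = 1.64e-07) in the same order. Il2rg rose by 0.27 (adjusted p = 2.35e-05), 0.32 (adjusted p = 7.4e-07) and 0.26 (adjusted p = 1.84e-05). Calls were common in these comparisons: at the same threshold, an adjusted p under 0.1, 52.2% of the 12390 genes tested were called with WT IL-2, 64.2% for H16R and 63.6% for 3x. The call of Il2ra with WT IL-2 was lost without isotype WT IL-2 replicate 3b (0.21, adjusted p = 0.101), and limma on log2(FPKM + 1) gave 0.16 (adjusted p = 0.186).

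Markers of cell types moved with the chains in these comparisons. Of 4 T cell markers (Cd3d, Cd3e, Cd3g and Cd4), 4 were higher with each molecule, with median log2 fold changes of 0.58, 0.59 and 0.44 for WT IL-2, H16R and 3x, larger than the changes of the chains except for Il2ra and Il2rb with 3x. Of 6 B cell markers, 6 were lower with each molecule (medians -2.46, -4 and -3.9), and of 6 myeloid markers 4, 5 and 5 were lower (medians -1.41, -2.71 and -2.5). Of 5 Treg markers, 4 were higher with each molecule (medians 0.53, 0.52 and 0.55). Their part in the changes of Il2ra, Il2rb and Il2rg was not tested. Without isotype PBS replicate 1 and MHC II block WT IL-2 replicate 1, the chains were still called with every molecule, at 0.22, 0.41 and 0.79 for Il2ra, 0.20, 0.26 and 0.50 for Il2rb and 0.25, 0.31 and 0.24 for Il2rg.

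Under the MHC II block, WT IL-2 and the muteins parted. With WT IL-2, Il2ra was at a log2 fold change of 0.08 against PBS (95% interval -0.11 to 0.28, adjusted p = 0.535) and Il2rb at 0.04 (-0.09 to 0.17, adjusted p = 0.699), neither called, while Il2rg rose by 0.14 (adjusted p = 0.02). With H16R, Il2ra rose by 0.47 (adjusted p = 0.000108), Il2rb by 0.57 (adjusted p = 1.28e-08) and Il2rg by 0.47 (adjusted p = 8.94e-10). With 3x, Il2ra rose by 1.17 (adjusted p = 1.73e-11), a 2.26-fold higher level. Il2rb rose 1.67-fold with 3x (log2 0.74, adjusted p = 5.15e-11) and Il2rg 1.35-fold (log2 0.44, adjusted p = 2.12e-09). Of all genes tested, 35.6% were called with WT IL-2, 66.5% for H16R and 73% for 3x in this arm. The small Il2rg change with WT IL-2 was lost without MHC II block WT IL-2 replicate 2 (0.1, adjusted p = 0.108). It was also lost without a filter on low counts (0.12, adjusted p = 0.111), with total counts in place of TMM (0.094, adjusted p = 0.108) and in limma on log2(FPKM + 1) (0.094, adjusted p = 0.112). With H16R and 3x, 4 of 4 T cell markers were again higher (medians 0.46 and 0.31), and with WT IL-2 none was called (median 0.09), while 4 of 6 B cell markers (median 1.52) and 5 of 6 myeloid markers (median 1.99) were higher. Their part in the values of the chains was not tested. The 3 comparisons of each arm share their PBS mice.

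**Figure D2:**
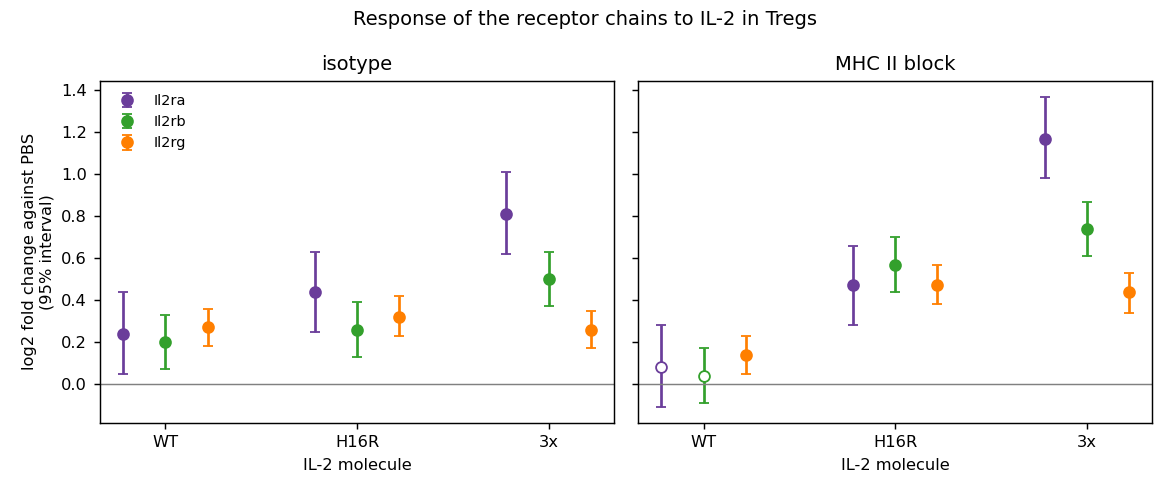
Log2 fold change of Il2ra, Il2rb and Il2rg against PBS in Tregs, by IL-2 molecule and antibody, from edgeR on 4 mice a group. Lines are 95% intervals, filled circles passed an adjusted p under 0.1 and open circles did not, and the highest point is Il2ra with 3x under the MHC II block at 1.17.

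The 3 molecules were also compared with each other at their common dose of 25 µg and day 4, in 3 pairs per arm. In the isotype arm, H16R and WT IL-2, which differ by the single substitution, were not called apart for any chain. The differences, H16R minus WT IL-2, were 0.20 for Il2ra (95% interval 0 to 0.39, adjusted p = 0.174), 0.06 for Il2rb (-0.07 to 0.19, adjusted p = 0.565) and 0.06 for Il2rg (-0.04 to 0.15, adjusted p = 0.47), and 18.6% of genes were called. 3x, with its 3 substitutions, was above WT IL-2 by 0.57 for Il2ra (adjusted p = 6.13e-05) and 0.30 for Il2rb (adjusted p = 0.000818), but the difference for Il2rg was -0.01 (-0.1 to 0.08, adjusted p = 0.921), with 34.7% of genes called. Against H16R, 3x was higher by 0.37 for Il2ra (adjusted p = 0.0143) and 0.24 for Il2rb (adjusted p = 0.0205), and Il2rg differed by -0.06 (-0.16 to 0.03, adjusted p = 0.465), with 11.5% of genes called. The differences from H16R in Il2ra and Il2rb were both lost without isotype 3x replicate 1, which has the highest value of both genes in the arm (Il2ra 0.28, adjusted p = 0.107, and Il2rb 0.15, adjusted p = 0.159). Of 4 T cell markers, 2 were lower with 3x than with WT IL-2 (median -0.11) and 2 lower than with H16R (median -0.20), and of 6 B cell markers 2 were lower with 3x than with WT IL-2 (median -1.3). Their part in the differences of the chains was not tested. Fitted on the groups of the contrast alone, H16R was above WT IL-2 for Il2ra by 0.19 (adjusted p = 0.0787).

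In the MHC II block arm the muteins were above WT IL-2 for every chain. H16R exceeded WT IL-2 by 0.38 for Il2ra (adjusted p = 0.00156), 0.53 for Il2rb (adjusted p = 2.46e-07) and 0.33 for Il2rg (adjusted p = 1.87e-06), where 57.5% of genes were called. 3x exceeded WT IL-2 by 1.09 for Il2ra (adjusted p = 3.52e-10), 0.70 for Il2rb (adjusted p = 5.99e-10) and 0.29 for Il2rg (adjusted p = 3.56e-06), where 68.7% of genes were called. Between the muteins, Il2ra was 0.71 higher with 3x (adjusted p = 1.92e-05) and Il2rg differed by -0.04 (95% interval -0.13 to 0.05, adjusted p = 0.631), where 25.2% of genes were called. Il2rb was 0.17 higher with 3x (adjusted p = 0.0611). That call was lost when any 1 of 5 libraries was left out, MHC II block H16R replicate 1 or 2 or MHC II block 3x replicate 1, 3 or 4, with values of 0.14 to 0.15 and adjusted p from 0.148 to 0.184. Between the muteins 3 of 4 T cell markers were lower with 3x (median -0.18). Against WT IL-2 in this arm, 4 of 4 T cell markers were higher with H16R (median 0.38, as large as the difference of Il2ra) and 3 of 4 with 3x (median 0.22), and 3 of 5 Treg markers were higher with each (medians 0.46 and 0.38). All 6 B cell markers were lower with each mutein (medians -2.28 and -1.87), as were 5 of 6 myeloid markers (medians -1.95 and -1.81). How far these shifts took part in the differences of the chains was not tested.

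The second question was what the MHC II block did to the chains with each treatment. In PBS mice no chain was called: the difference, block minus isotype, was -0.05 for Il2ra (95% interval -0.24 to 0.14, adjusted p = 0.793), -0.11 for Il2rb (-0.24 to 0.02, adjusted p = 0.307) and -0.02 for Il2rg (-0.12 to 0.07, adjusted p = 0.805), and 14.1% of genes were called. In these mice 6 of 6 B cell markers (median -1.78), 3 of 6 NK markers (median -0.46) and 2 of 6 myeloid markers (median -0.72) were lower under the block. Of 4 T cell markers 1 was higher (median 0.17). Their part in the values of the chains in PBS mice was not tested. With WT IL-2 all 3 chains were lower under the block, with log2 differences of -0.27 for Il2rb (adjusted p = 0.002), -0.15 for Il2rg (adjusted p = 0.0141) and -0.21 for Il2ra (adjusted p = 0.0986), with 33.5% of genes called. The Il2ra call stood just inside the threshold. It was lost in 20 of the 32 fits that left out 1 library each: any isotype WT IL-2 or MHC II block H16R library, replicate 2 or 3 of either PBS group, replicate 4 of MHC II block PBS, isotype H16R replicate 1 or 2, isotype 3x replicate 3 or 4, or MHC II block WT IL-2 replicate 1, 2 or 4. In 18 of these the value was -0.23 to -0.21 (adjusted p from 0.101 to 0.144). Without MHC II block WT IL-2 replicate 1, the library with high B cell and myeloid markers, the difference was -0.13 (adjusted p = 0.339), and without isotype WT IL-2 replicate 3b it was -0.17 (adjusted p = 0.219). With isotype PBS replicate 1 also left out, it was -0.13 (adjusted p = 0.331), and Il2rb (-0.23, adjusted p = 0.0139) and Il2rg (-0.13, adjusted p = 0.0596) were still called. In the same comparison of all libraries 4 of 4 T cell markers were lower (median -0.30), as were 4 of 5 Treg markers (median -0.33), so that the chains fell by no more than the medians of these markers. All 6 B cell markers (median 2.04), 6 myeloid markers (median 1.87) and 6 NK markers (median 1.33) were higher. Their part in the lower levels of the chains was not tested.

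With the muteins, the chains that were called were higher under the block. With H16R, Il2rb was higher by 0.20 (adjusted p = 0.0237) and Il2rg by 0.13 (adjusted p = 0.0441), while Il2ra differed by -0.02 (95% interval -0.22 to 0.17, adjusted p = 0.88), and 30.7% of genes were called. The Il2rg difference was lost without isotype H16R replicate 4 (0.1, adjusted p = 0.16), without MHC II block H16R replicate 3 (0.12, adjusted p = 0.114) or without replicate 4 of the latter group (0.092, adjusted p = 0.185). With 3x, Il2ra was higher by 0.31 (adjusted p = 0.00835), Il2rg by 0.15 (adjusted p = 0.00751) and Il2rb by 0.13 (adjusted p = 0.0838), and 54.1% of genes were called. The Il2rb call with 3x was lost without any 1 of 6 libraries, isotype 3x replicate 2, 3 or 4 or MHC II block 3x replicate 1, 3 or 4 (0.077 to 0.14, adjusted p from 0.101 to 0.342). Markers of other cells were also higher under the block: with H16R 4 of 6 myeloid markers (median 1.29) and 1 of 6 B cell markers (median 1.3), and with 3x 3 of 6 myeloid markers (median 1.35), 3 of 6 B cell markers (median 1.65) and both CD8 T cell markers (median 1.72). None of the 4 T cell markers was called (medians 0.02 and 0). The part of those cells in the rise of the chains was not tested.

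Whether the responses themselves differed between the antibody arms was tested with interaction terms, the response under the block minus that with isotype antibody. For 3x against PBS the response was larger under the block in all 3 chains, by 0.36 for Il2ra (SE 0.133, adjusted p = 0.04), 0.24 for Il2rb (SE 0.089, adjusted p = 0.041) and 0.17 for Il2rg (SE 0.064, adjusted p = 0.0389), where 39% of genes were called. For H16R against PBS it was larger for Il2rb, by 0.31 (adjusted p = 0.0248), while Il2ra gave 0.03 (95% interval -0.24 to 0.3, adjusted p = 0.915) and Il2rg gave 0.15 (0.02 to 0.28, adjusted p = 0.122), with 19.1% of genes called. For WT IL-2 against PBS no chain was called: the terms were -0.16 for Il2ra (-0.43 to 0.11, adjusted p = 0.486), -0.16 for Il2rb (-0.34 to 0.02, adjusted p = 0.254) and -0.13 for Il2rg (-0.26 to 0, adjusted p = 0.203), with 19.6% of genes called. The terms for 3x in Il2ra and Il2rb were lost without isotype 3x replicate 2 (0.3, adjusted p = 0.101, and 0.18, adjusted p = 0.113) or MHC II block 3x replicate 4 (0.28, adjusted p = 0.134, and 0.21, adjusted p = 0.105). The term for 3x in Il2rg was lost without MHC II block 3x replicate 1 (0.13, adjusted p = 0.145). In the same terms 6 of 6 B cell markers were higher with WT IL-2, H16R and 3x (medians 4, 3.27 and 3.52), as were 6, 4 and 4 of 6 myeloid markers (medians 2.45, 1.97 and 2.08) and 6, 6 and 5 of 6 NK markers (medians 1.79, 2.06 and 1.96). Of 5 Treg markers, 3 were lower in each term (medians -0.41, -0.21 and -0.26), and of 4 T cell markers 4 were lower with WT IL-2 (median -0.48). The terms also hold the shift in PBS mice, where B cell markers were lower under the block (median -1.78). What all these markers contributed to the terms of the chains was not tested.

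The muteins were then set against WT IL-2 across the arms. The gap between 3x and WT IL-2 was wider under the block by 0.52 for Il2ra (adjusted p = 0.00338), 0.40 for Il2rb (adjusted p = 0.000991) and 0.30 for Il2rg (adjusted p = 0.000658), where 43.8% of genes were called. The gap between H16R and WT IL-2 was wider by 0.47 for Il2rb (adjusted p = 0.000998) and 0.28 for Il2rg (adjusted p = 0.0056), and for Il2ra it was 0.19 wider (95% interval -0.08 to 0.46, adjusted p = 0.34), where 23.5% of genes were called. These 5 calls held in every fit that left out 1 library. T cell markers were 4 of 4 higher in both terms (medians 0.30 for 3x and 0.32 for H16R), about as large as the terms of Il2rg, and 3 of 5 Treg markers were higher in each (medians 0.19 and 0.25). Whether the chains widened beyond such markers was not tested.

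The ratio of chains within a library needs no scaling between libraries. In Tregs with isotype antibody the median ratio of Il2rb to Il2ra in FPKM was 2.45 with PBS (2.27 to 2.66), 2.43 with WT IL-2 (2.26 to 2.6), 2.27 with H16R (1.96 to 2.47) and 1.99 with 3x (1.99 to 2.04). Under the block it was 2.38 with PBS (2.18 to 2.54), 2.32 with WT IL-2 (1.95 to 2.6), 2.69 with H16R (2.55 to 2.81) and 1.84 with 3x (1.71 to 2.11). 3x thus had less Il2rb per Il2ra than PBS in both arms, without overlap. H16R under the block had more Il2rb per Il2ra than PBS and 3x in every mouse. WT IL-2 overlapped PBS in both arms, and under the block it also overlapped 3x. In Tcons the same ratio had medians of 23 and 23.4 with PBS and 8.49 to 14.4 with IL-2. The ratio of Il2ra to Foxp3 in Tregs with isotype antibody had a median of 0.464 with PBS (0.441 to 0.535), 0.403 with WT IL-2 (0.383 to 0.422), 0.396 with H16R (0.367 to 0.408) and 0.498 with 3x (0.466 to 0.609). Per Foxp3, WT IL-2 and H16R thus lay below PBS without overlap, and 3x overlapped PBS. Under the block the medians were 0.425 with PBS (0.396 to 0.43), 0.434 with WT IL-2 (0.404 to 0.494), 0.405 with H16R (0.404 to 0.425) and 0.685 with 3x (0.562 to 0.837), where 3x alone was apart from PBS.

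Natural killer cells also carry the beta chain, and markers of such cells were read beside Il2rb. The summed FPKM of 6 NK markers in Tregs of the isotype arm was 16.2 to 24 with PBS, 8.75 to 12.5 with WT IL-2, 6.35 to 9.01 with H16R and 7.56 to 11 with 3x. Under the block it was 14.5 to 18.4 with PBS, 21.5 to 38.6 with WT IL-2, 15.7 to 23.6 with H16R and 18.3 to 22.5 with 3x. The NK markers moved with Il2rb in some comparisons and against it in others. With WT IL-2 against PBS under the block, 4 of 6 were higher (median 1.04), where Il2rb was not called. Against PBS under the block, 3 of 6 were higher and 2 lower with H16R (median 1.13) and 4 higher and 2 lower with 3x (median 1.15). Between the antibodies, 5 of 6 were higher under the block with H16R (median 1.31) and 4 of 6 with 3x (median 1.52), where Il2rb was also called higher. Against it, 6 of 6 were higher under the block with WT IL-2 (median 1.33), where Il2rb was lower, and in the block arm 3 were lower and 1 higher with H16R, and 4 lower and 1 higher with 3x, than with WT IL-2 (medians -0.58 and -0.57), where Il2rb was higher. In the isotype arm 4, 5 and 5 of 6 were lower against PBS (medians -0.69, -1.6 and -1.31). The part of NK cells in the Il2rb values was not tested. CD8 T cell markers, Cd8a and Cd8b1, were both higher with each molecule against PBS under the block (medians 2.14, 1.19 and 1.82), at summed levels of 3.93 to 23 FPKM over all Treg libraries.

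The summed FPKM of 5 Treg markers was 900 to 1090 with PBS and isotype antibody, 1300 to 1510 with WT IL-2, 1290 to 1340 with H16R and 1250 to 1310 with 3x. Under the block it was 925 to 982 with PBS, 772 to 1030 with WT IL-2, 1200 to 1340 with H16R and 1220 to 1410 with 3x. It was higher than with PBS wherever the chains were called higher, apart from WT IL-2 under the block, but did not follow Il2ra among the molecules of the isotype arm. With 3x, 3 of 5 Treg markers were lower under the block than with isotype antibody and none was higher (median -0.13, beside 54.1% of all genes called), while all 3 chains were called higher. The part of these markers in the values of the chains was not tested.

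In Tcons, Il2ra rose from a low level. With isotype antibody the pair of PBS mice had 4.81 and 5.05 FPKM, WT IL-2 mice 12.5 and 16.1 FPKM, H16R mice 16.6 and 18.8 FPKM and 3x mice 12.1 and 11.5 FPKM. Under the block PBS mice had 4.98 and 4.59 FPKM, WT IL-2 mice 8.17 and 9.46 FPKM, H16R mice 13.2 and 13.3 FPKM and 3x mice 13.4 and 10.2 FPKM. Every Tcon library from an IL-2-treated mouse was above every PBS library. With both arms in 1 model, the log2 fold change against PBS was 1.26 with WT IL-2 (SE 0.136, adjusted p = 0.000325), 1.67 with H16R (adjusted p = 1.28e-05) and 1.32 with 3x (adjusted p = 0.000274), while 27.2%, 31.1% and 9.88% of the 12529 genes tested were called.

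Foxp3 in the same Tcon libraries was at 16.1 and 14.6 FPKM with PBS and isotype antibody, 26.4 and 49.2 FPKM with WT IL-2, 35.7 and 36.7 FPKM with H16R and 29.9 and 24.2 FPKM with 3x. Under the block it was at 18.3 and 20.7 FPKM with PBS, 12.8 and 18.1 FPKM with WT IL-2, 26.1 and 23.1 FPKM with H16R and 26.7 and 26 FPKM with 3x. Foxp3 was thus above the PBS mice of its arm, as Il2ra was, with every molecule in the isotype arm. The same held with H16R and 3x under the block. The part of Foxp3 in the rise of Il2ra was not tested. With WT IL-2 under the block, Il2ra was above the PBS mice in both mice and Foxp3 was not. The ratio of Il2ra to Foxp3 in Tcons had a median of 0.322 with PBS and isotype antibody, 0.246 with PBS under the block, and 0.4 to 0.581 in the groups with IL-2.

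The signalling chains moved less in Tcons. Il2rb was at 112 and 115 FPKM with PBS and isotype antibody, 134 and 168 FPKM with WT IL-2, 153 and 146 FPKM with H16R and 148 and 137 FPKM with 3x. Under the block the values were 111 and 112 FPKM with PBS, 130 and 122 FPKM with WT IL-2, 165 and 125 FPKM with H16R and 130 and 123 FPKM with 3x. All IL-2-treated mice were above all PBS mice. Il2rb rose by 0.34 with WT IL-2 (adjusted p = 0.0241) and 0.38 with H16R (adjusted p = 0.0112), and with 3x its value was 0.24 (95% interval 0.05 to 0.43, adjusted p = 0.131). The last was called without isotype WT IL-2 replicate 2 (0.24, adjusted p = 0.0438) and without MHC II block H16R replicate 1 (0.24, adjusted p = 0.0953). It was also called in limma on log2(FPKM + 1) (0.25, adjusted p = 0.0976) and in a model of 8 group means (0.24, adjusted p = 0.093).

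Il2rg in Tcons was at 250 and 247 FPKM with PBS and isotype antibody, 267 and 297 FPKM with WT IL-2, 286 and 279 FPKM with H16R and 274 and 310 FPKM with 3x. Under the block it was at 280 and 273 FPKM with PBS, 251 and 267 FPKM with WT IL-2, 298 and 268 FPKM with H16R and 291 and 272 FPKM with 3x. All IL-2-treated mice of the isotype arm were above its PBS mice, while under the block WT IL-2 lay below PBS and the muteins lay on both sides of it. No change of Il2rg against PBS was called, with 0.05 for WT IL-2 (95% interval -0.1 to 0.2, adjusted p = 0.615), 0.10 for H16R (-0.05 to 0.25, adjusted p = 0.322) and 0.12 for 3x (-0.03 to 0.27, adjusted p = 0.324).

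**Figure D3:**
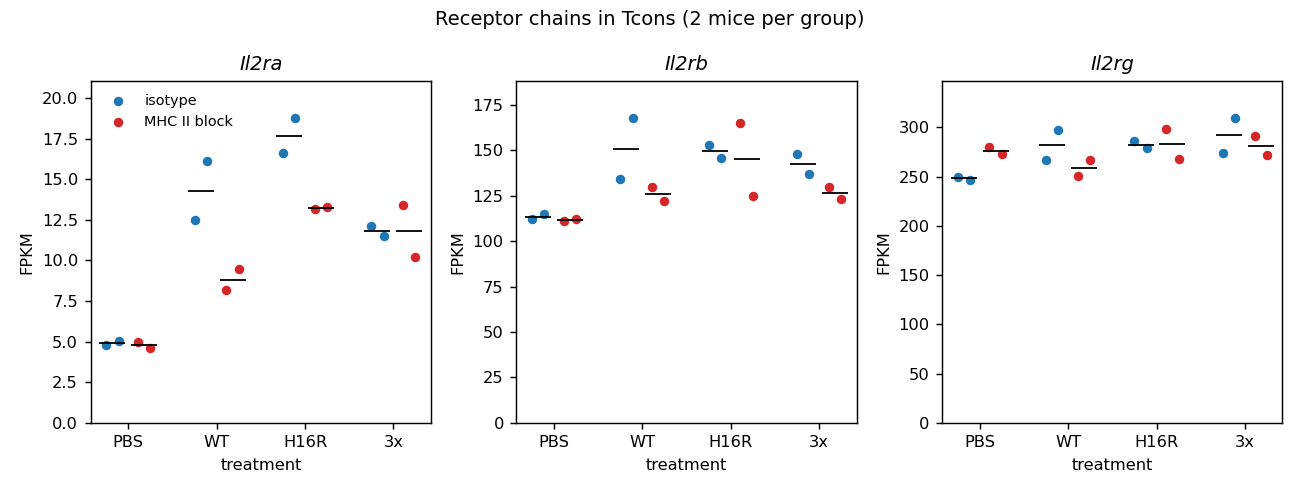
Levels of Il2ra, Il2rb and Il2rg in Tcons, in FPKM on a linear axis for each chain, by treatment and antibody. Each dot is 1 mouse and the line is the mean of 2 mice, and for Il2ra all IL-2-treated mice (8.17 to 18.8 FPKM) lie above all PBS mice (4.59 to 5.05 FPKM).

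Between the molecules no chain was called in Tcons. H16R minus WT IL-2 gave 0.41 for Il2ra (95% interval 0.13 to 0.7, adjusted p = 0.683), 0.04 for Il2rb (-0.15 to 0.23) and 0.04 for Il2rg (-0.1 to 0.19), in a comparison that called 0.0559% of genes. 3x minus WT IL-2 gave 0.06 for Il2ra (-0.22 to 0.35), with 9.39% of genes called, and 3x minus H16R gave -0.35 (-0.63 to -0.07, adjusted p = 0.242), with 1.39% called. In the model of 8 group means Il2ra was called in both comparisons with H16R, at 0.43 against WT IL-2 (adjusted p = 0.0353) and at -0.35 for 3x minus H16R (adjusted p = 0.0534). The latter was also called without isotype WT IL-2 replicate 2 (-0.35, adjusted p = 0.0991). In the model of treatment plus antibody, Il2ra in Tcons was lower under the block by an average log2 difference of -0.31 (adjusted p = 0.0404), and Il2rb was at -0.17 (adjusted p = 0.0737). The mean levels of Il2ra did not share this difference in every treatment: with isotype antibody and with the block they were 14.3 and 8.82 FPKM for WT IL-2 and 17.7 and 13.2 FPKM for H16R, but 4.93 and 4.78 FPKM for PBS and 11.8 and 11.8 FPKM for 3x. Il2rg differed by -0.02 (-0.12 to 0.09, adjusted p = 0.838), and 28.9% of genes were called. The Il2rb call was lost without any 1 of 8 libraries, isotype WT IL-2 replicate 2, either isotype 3x library, either MHC II block WT IL-2 library, MHC II block H16R replicate 2 or either MHC II block 3x library (-0.18 to -0.12, adjusted p from 0.108 to 0.145).

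Markers of other cells differed among these Tcon libraries, and 1 library stood apart by its Treg markers. The summed FPKM of 5 Treg markers was 516 in isotype WT IL-2 replicate 2 and 124 to 246 in the other Tcon libraries. That library also had the highest Il2rb of the Tcons (168 FPKM). Without it, WT IL-2 against PBS gave 1.11 for Il2ra (adjusted p = 0.000217) and 0.24 for Il2rb (adjusted p = 0.0277), both still called, and block minus isotype gave -0.24 for Il2ra (adjusted p = 0.0521) and -0.12 for Il2rb (adjusted p = 0.119). The summed FPKM of 6 NK markers was 52.7 to 62.1 with PBS and isotype antibody, 32 to 34.4 with PBS under the block, 52.6 to 80.4 with the IL-2 molecules in the isotype arm, and 66.7 to 124 with the IL-2 molecules under the block. That of 6 myeloid markers was 250 to 372 with WT IL-2 under the block and 29.7 to 147 in all other Tcon groups. That of 6 B cell markers was 383 to 406 with PBS and isotype antibody and 57.8 to 193 in all other Tcon groups. Between the antibodies, where Il2ra and Il2rb were called lower under the block, 5 of 6 B cell markers (median -1.02) and 2 of 5 Treg markers (median -0.5) were lower and 4 of 6 myeloid markers were higher (median 0.93). The part of these markers in the Tcon values of Il2ra and Il2rb was not tested.

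The Treg and Tcon libraries of the same 16 mice were set against each other in a model that blocked on the mouse. Il2ra, used in the selection, was 12.2-fold higher in Tregs on average (log2 3.61), a description with no test. Its ratio in FPKM within a mouse was 18.3 to 20.3 with PBS (median 19.3), 6.3 to 9.68 with WT IL-2 (median 8.86), 6.33 to 8.78 with H16R (median 7.64) and 11.6 to 15.1 with 3x (median 14.8). The ratio was thus highest with PBS and higher with 3x than with the other 2 molecules, without overlap.

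Il2rb was 2.11-fold higher in Tregs on average (log2 1.08, SE 0.04, adjusted p = 5.43e-13) and Il2rg 1.37-fold (log2 0.46, SE 0.028, adjusted p = 3.08e-10), in a comparison that called 80.5% of the 12845 genes tested. By treatment, the log2 difference of Il2rb was 1.02 with PBS (adjusted p = 4.16e-08), 0.82 with WT IL-2 (adjusted p = 3.83e-07), 1.06 with H16R (adjusted p = 1.55e-08) and 1.41 with 3x (adjusted p = 7.38e-10). That of Il2rg was 0.29 with PBS (adjusted p = 0.000736), 0.45 with WT IL-2 (adjusted p = 7.19e-06), 0.58 with H16R (adjusted p = 3.03e-07) and 0.53 with 3x (adjusted p = 7.81e-07). The shares of genes called were 50.3%, 63.5%, 70.4% and 71.2%. Within single mice Tregs had 1.51 to 2.78 times the Il2rb of Tcons and 1.15 to 1.52 times the Il2rg, so that both were higher in Tregs in 16 of 16 mice. In the average over treatments 4 of 4 T cell markers were also higher in Tregs (median 0.34, near the 0.46 of Il2rg). B cell, myeloid and NK markers were lower in Tregs, 6 of 6 each (medians -2, -1.54 and -2.23), as were both CD8 T cell markers (median -1.01), and their part in the differences of Il2rb and Il2rg was not tested.

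Whether the distance between the cell types changed with IL-2 was tested against PBS. With 3x it widened for Il2rb by 0.39 (adjusted p = 0.0132) and for Il2rg by 0.24 (adjusted p = 0.0267), where 46.5% of genes were called. With H16R it widened for Il2rg by 0.29 (adjusted p = 0.0132), and Il2rb gave 0.04 (95% interval -0.2 to 0.27, adjusted p = 0.823), with 40.6% of genes called. With WT IL-2 neither was called, at -0.21 for Il2rb (-0.44 to 0.03, adjusted p = 0.256) and 0.16 for Il2rg (-0.01 to 0.33, adjusted p = 0.218), with 12.2% of genes called. The Treg minus Tcon difference rose for 4 of 4 T cell markers with each molecule (medians 0.36, 0.48 and 0.30 for WT IL-2, H16R and 3x), more than for Il2rg. With 3x it also rose for 3 of 5 Treg markers and fell for 1 (median 0.43, near the 0.39 of Il2rb). With PBS the medians of this difference were already negative, at -1.27 for myeloid and -1.67 for NK markers. Against PBS it fell for 1, 3 and 4 of 6 myeloid markers (medians -0.41, -1.19 and -1.25) and for 1, 3 and 3 of 6 NK markers (medians -0.64, -1.18 and -0.63). It rose for 1 of 6 myeloid markers with each mutein. The part of these markers in the terms of Il2rb and Il2rg was not tested.

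**Figure D4:**
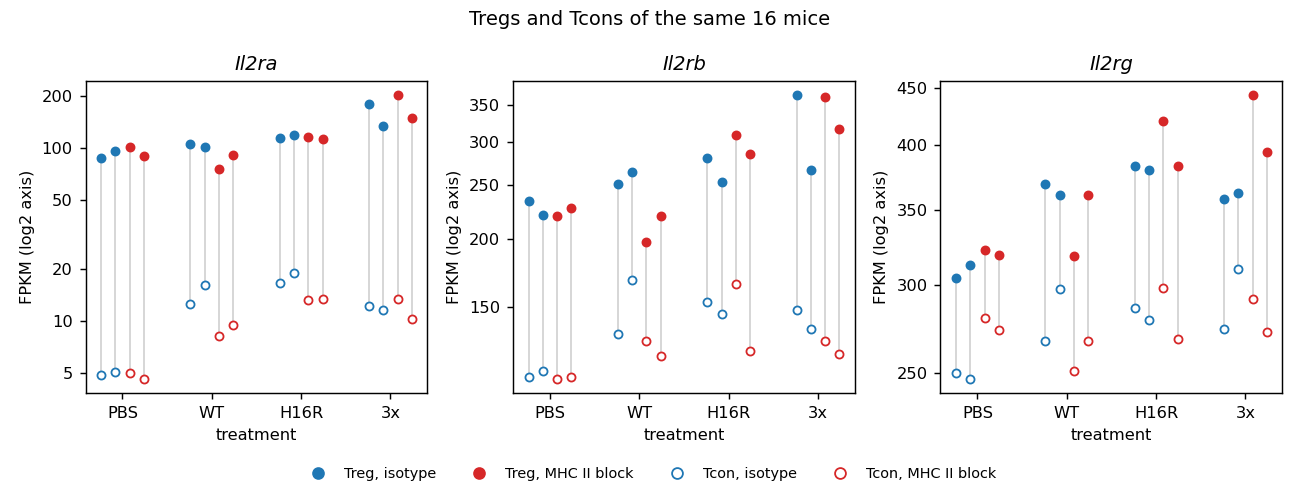
Levels of the 3 chains in the Treg (filled) and Tcon (open) libraries of the same 16 mice, in FPKM on a log2 axis, by treatment and antibody. Il2ra is far apart between the cell types, Il2rb about 1 log2 unit apart (1.08 on average) and Il2rg close (0.46 on average).

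Genes of the same pathway were read from lists of its parts. Of 5 receptor chains that pair with the gamma chain (Il4ra, Il7r, Il9r, Il15ra and Il21r), between 1 and 3 were higher and between 0 and 2 lower against PBS in the 6 Treg comparisons. Their median log2 change was 0 to 0.20, against -0.04 to 0.02 over all genes tested. Since 35.6% to 73% of all genes were called in these comparisons, such counts are read against that share, here and for the 2 lists that follow. Il9r, the IL-9 receptor chain, rose in all 6, by 0.92 with WT IL-2, 1.13 for H16R and 1.36 for 3x in the isotype arm and by 1.15, 0.93 and 1.24 under the block (highest adjusted p = 7.44e-07). Il15ra, which forms the IL-15 receptor together with the beta and gamma chains, fell with 3x in both arms, with log2 fold changes of -0.52 (adjusted p = 1.08e-06) and -0.38 (adjusted p = 5.31e-05), while Il2rb rose. Il7r, the IL-7 receptor chain, was higher with 3x in the isotype arm (0.3) and lower with 3x under the block (-0.55).

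Among 8 genes that transmit the signal (Jak1, Jak3, Stat5a, Stat5b, Shc1, Grb2, Gab2 and Pik3r1), 3 to 6 were higher and 1 or 2 lower against PBS in Tregs, with medians of 0 to 0.21, beside the 35.6% to 73% of all genes called. Grb2, an adaptor, was higher in all 6 comparisons (0.14 to 0.42). Jak3, the kinase on the gamma chain, was higher with WT IL-2 (0.38, adjusted p = 2.86e-06) and H16R (0.43, adjusted p = 1.42e-07) in the isotype arm but at -0.02 with 3x (adjusted p = 0.732). Under the block it was higher with H16R (0.37) and 3x (0.28) and at -0.12 with WT IL-2 (adjusted p = 0.102). Jak1, the kinase on the beta chain, was called higher with H16R (0.32) and 3x (0.23) in the isotype arm and was at -0.03, 0.07 and -0.09 with WT IL-2, H16R and 3x under the block, not called. Stat5a was lower under the block with all 3 molecules (-0.24, -0.19 and -0.24).

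Of 6 inhibitors of the receptor (Cish, Socs1, Socs2, Socs3, Ptpn2 and Ptpn6), 1 to 4 were higher and 0 to 2 lower against PBS in Tregs, with medians of -0.06 to 0.26, beside the same 35.6% to 73%. Socs2, a STAT5 target of the SOCS family, had the largest rise of the list in all 6 comparisons, at 0.88, 1.29 and 1.63 in the isotype arm and 0.86, 1.77 and 1.88 under the block (highest adjusted p = 2.48e-05). Socs1 fell in 5 of the 6, with 3x under the block at -0.06 (adjusted p = 0.514). Cish rose with 3x in both arms (0.22, adjusted p = 0.00282, and 0.36, adjusted p = 4.5e-06). In Tcons 3 of the 6 rose with each molecule (27.2%, 31.1% and 9.88% of all genes were called), among them Cish (0.66, 0.67 and 0.55) and Socs2 (1.45, 1.54 and 1.08), while of the transducers no more than 1 was called. Between the cell types, 5 of the 6 were higher in Tregs, with a median of 1.08 against 0 over all genes, where 80.5% of genes were called, led by Cish at 2.4 (adjusted p = 6.39e-17).

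Of the 6 cytokines that use the gamma chain, Il2, Il4, Il15 and Il21 passed the filter, and Il7 and Il9 were not tested. Il2 itself was lower in Tregs with H16R and 3x, at log2 fold changes of -1.86 (adjusted p = 0.000495) and -1.72 (adjusted p = 0.000837) in the isotype arm and of -0.87 (adjusted p = 0.0867) and -1.62 (adjusted p = 0.0028) under the block. Il4 was higher with each molecule in both arms, up to 3.3 with 3x under the block (adjusted p = 3.93e-11). Il21 rose with both muteins under the block (1.85, adjusted p = 0.000293, and 2.96, adjusted p = 3.72e-07). All 4 were lower in Tregs than in Tcons on average, with a median of -0.81, where 80.5% of genes were called.

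**Figure D5:**
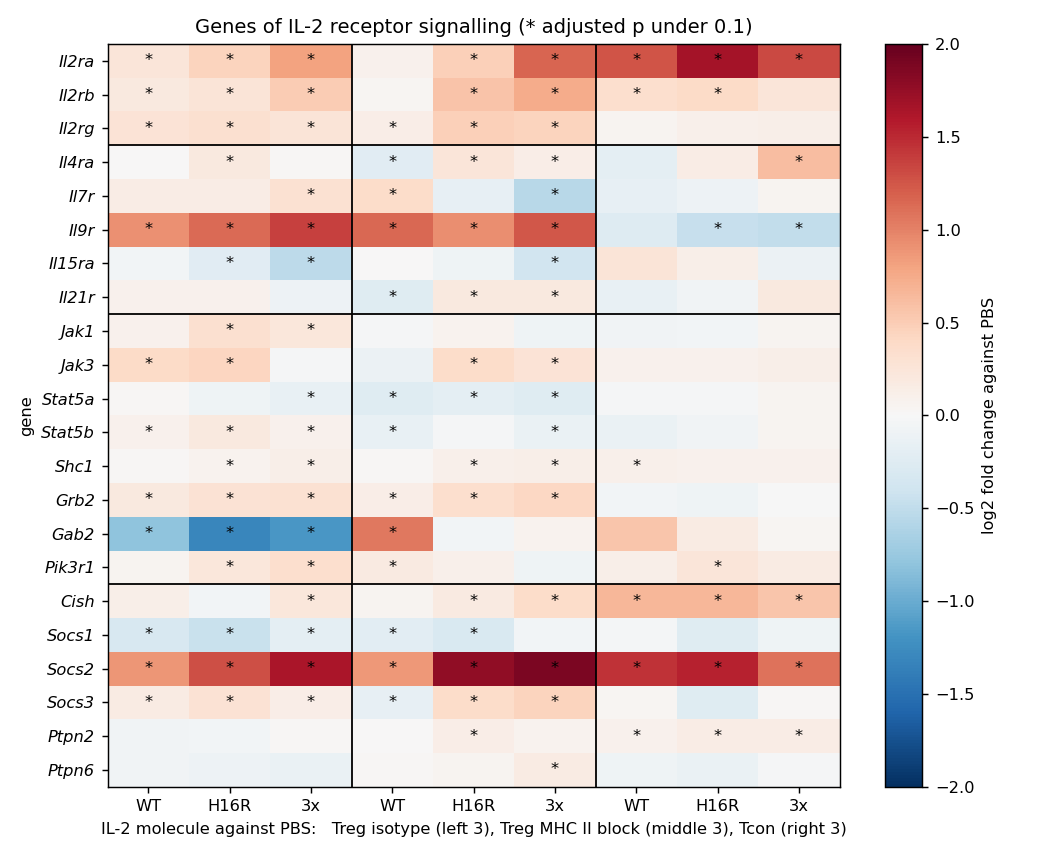
Heat map of log2 fold changes against PBS for 22 genes of the IL-2 receptor pathway, with the 6 Treg comparisons and the 3 Tcon comparisons as columns. Asterisks mark an adjusted p under 0.1, and the colour scale stops at 2 in both directions. Socs2 is higher in all 9 columns.

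The genes whose pattern in Tregs was most like each chain were named by Pearson's r of log2 CPM over the 32 Treg libraries, among 9506 genes with a mean above 5 CPM. The libraries share treatments, so that r describes a common order of the groups and carries no p. Those nearest to Il2ra were Ywhab, a 14-3-3 protein (r = 0.951), Cmtm6 (0.95), the cohesin subunit Rad21 (0.95), Sgo1, a protector of centromeric cohesion (0.947), and Hnrnpa2b1 (0.946). Those nearest to Il2rb were Stard4 (0.944), Crybg1 (0.944), Arpc5 (0.943), the GTPase Rac1 (0.943) and Lrrc8c (0.94). Those nearest to Il2rg were Glrx (0.964), Acot7 (0.963), the actin capping subunit Capzb (0.96), Sirt2 (0.957) and Cap1 (0.957). Among the chains, r was 0.919 between Il2ra and Il2rb, 0.836 between Il2rb and Il2rg and 0.725 between Il2ra and Il2rg. After the group means were taken out, the values were 0.667, 0.345 and 0.374. Foxp3 had r = 0.849 with Il2rg, 0.781 with Il2rb and 0.705 with Il2ra.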

How the data were processed

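The authors deposited expected counts, made from paired reads of stranded mRNA libraries that were aligned with OSA in Omicsoft Array Suite v10.0 to mouse genome B38 and quantified with the Omicsoft version of RSEM, and not normalized. Of their nonzero values 72.8% are whole (tolerance 1e-06). The FPKM values that the authors deposited derive from the same estimates. Tables of the authors' DESeq2 comparisons hold log2 fold changes, p-values adjusted for false discovery rate and a Wald score, and the authors' values in them were not used. DESeq2 v1.30.1 and RSEM are the tools named in the submitters' processing notes.

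Expected counts were rounded and tested in R 4.3.3 with edgeR 4.0.16 (glmQLFit and glmQLFTest) after TMM scaling within the libraries fitted. The genes tested exceeded 0.5 CPM in 4 or more of the libraries in the fit, are protein-coding in GENCODE vM21 and have a value in each of those libraries. Of the gene names, 51519 (96.6%) are in that annotation. Standard errors and 95% intervals come from the quasi-likelihood F statistic, and p-values were Benjamini-Hochberg adjusted across every gene tested and called under 0.1. Tregs were fitted as 8 group means, Tcons as treatment plus antibody, and Tregs against Tcons with the mouse as a block. At these depths Il2ra had 7233 to 42518 expected counts per Treg library and 726 to 2721 per Tcon library. The labels give 2 isotype WT IL-2 Treg libraries the same mouse name, and they are called replicates 3a and 3b. They are taken as different mice, since the authors state 4 mice for each group.

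Limma 3.58.1 on log2(FPKM + 1) and log2(FPKM + 0.1), DESeq2 1.42.0 on the counts, other filters and scalings, and fits without single libraries were the alternatives. Scripts were tested on simulated data. The 3 receptor genes, the pathway lists and the marker lists were chosen with earlier results of these data known. The genes named are the 3 receptor genes, genes of those lists, and for each receptor gene the 5 most correlated genes.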

Additional observations from a re-analysis of the deposited data

Results flagged for a closer look

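Il2rb in Tregs of the 3x group under the MHC II block had 1 mouse apart from the others: replicate 2 was at 1220 CPM and the other 3 mice at 1380, 1380 and 1390 CPM, a gap of 0.941 of the range, above Dixon's critical value for 4 samples. Of 24 groups examined 1 was marked, and chance marks about 1 in 20.

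Of 21 differences between responses that were tested, 12 passed, each a difference between groups that edgeR called in its own term. In the terms with such a call 19.1% to 46.5% of all genes were called, and over all terms tested 12.2% to 46.5%. Across the antibody arms, block minus isotype, these were Il2rb for H16R against PBS (0.31), Il2ra (0.36), Il2rb (0.24) and Il2rg (0.17) for 3x against PBS, Il2rb (0.47) and Il2rg (0.28) for H16R against WT IL-2, and Il2ra (0.52), Il2rb (0.40) and Il2rg (0.30) for 3x against WT IL-2. All are log2 differences and all are positive. Across the cell types, Treg minus Tcon, these were Il2rg for H16R (0.29) and Il2rb (0.39) and Il2rg (0.24) for 3x, each against PBS. The terms share their PBS or WT IL-2 mice, so that they are not separate pieces of evidence.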

How the results depend on the processing

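For Il2ra, Il2rb and Il2rg, 100 log2 differences were recomputed under the alternatives, 3471 values in all. No value changed sign where either fit called it (32 values of 12 results that neither fit called did), 3387 kept their side of the threshold, 67 lost the call and 17 gained it, and 81 of the results never changed sides. Besides single libraries, Il2ra for WT IL-2 between the antibodies lost its call with total counts in place of TMM (-0.20), with limma at either pseudocount (-0.19 and -0.20), on the contrast's groups alone (-0.22) and without the 2 libraries of high B cell markers (-0.13). Il2ra for WT IL-2 against PBS with isotype antibody lost it in both limma fits (0.16). Il2rg for WT IL-2 against PBS under the block lost it with total counts and both limma fits (0.094) and with no filter (0.12). Il2rb for 3x between the antibodies lost it on the contrast's groups alone (0.14), and Il2rb for the block in Tcons lost it with all biotypes (-0.15) and in limma (-0.12). Calls were gained on the contrast's groups alone by Il2ra for H16R against WT IL-2 with isotype antibody (0.19) and by the Il2rb interaction for WT IL-2 (-0.18), with total counts by the Il2rg interaction for H16R (0.16), in limma by Il2rb for 3x in Tcons (0.25 and 0.26), and with 8 group means in Tcons by Il2rb for 3x (0.24), Il2ra for H16R against WT IL-2 (0.43) and Il2ra for 3x against H16R (-0.35). The causes were not tested.

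Leaving out 1 library at a time, Il2ra ranged over 0.21 to 0.28 (isotype WT IL-2 against PBS), 0.28 to 0.43 (isotype 3x against H16R), -0.28 to -0.13 (WT IL-2, block minus isotype), 0.28 to 0.46 (interaction for 3x) and -0.46 to -0.29 (Tcon 3x against H16R). Il2rb ranged over 0.15 to 0.29 (isotype 3x against H16R), 0.14 to 0.22 (the same under the block), 0.077 to 0.22 (3x, block minus isotype), 0.18 to 0.33 (interaction for 3x), 0.17 to 0.26 (Tcon 3x against PBS) and -0.21 to -0.12 (Tcon block minus isotype). Il2rg ranged over 0.1 to 0.16 (block WT IL-2 against PBS), 0.092 to 0.17 (H16R, block minus isotype), -0.17 to -0.1 (interaction for WT IL-2), 0.12 to 0.19 (for H16R) and 0.13 to 0.19 (for 3x). The Il2rg interaction for WT IL-2 was called without MHC II block WT IL-2 replicate 2 (-0.17) or MHC II block 3x replicate 1 or 2 (-0.16), and that for H16R without isotype H16R replicate 3 (0.17), MHC II block WT IL-2 replicate 2 (0.16) or MHC II block H16R replicate 2 (0.19).

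The labels' replicate numbers did not pair the Tregs of different groups, since deviations of same-numbered libraries correlated at a mean of 0.01 over 112 pairs. With the replicate number as a block, Il2ra for WT IL-2 between the antibodies was -0.21 and lost its call (adjusted p = 0.103), and no other call changed. Counts of genes called moved by over 1.5 times in some comparisons. PBS block against isotype went from 1752 to 781 and isotype 3x against H16R from 1429 to 2260 on the contrast's groups alone, and Treg minus Tcon for WT IL-2 from 1566 to 887 without the 2 mice of high B cell markers. In Tcons, 3x against PBS went from 1238 to 2229, 3x against WT IL-2 from 1176 to 2810 and 3x against H16R from 174 to 1167 with 8 group means, and H16R against WT IL-2 from 7 to 468, or to 0 with no filter in edgeR (941 at an unadjusted p under 0.05, 51 by DESeq2). Leaving out 1 library moved such counts further, to 246 to 3213 for Treg minus Tcon with WT IL-2 (isotype WT IL-2 mouse 1 or 2), 907 to 2711 from 2309 for isotype H16R against WT IL-2, 591 to 1765 for isotype 3x against H16R, 1975 to 3678 from 3127 for block 3x against H16R, 1106 to 2066 for PBS and 2493 to 4481 from 3799 for H16R between the antibodies, and 1488 to 3593 from 2363 and 1798 to 3902 from 2908 for the interactions of H16R against PBS and WT IL-2. In Tcons they were 1753 to 5395 from 3412 (WT IL-2 against PBS), 2239 to 4870 from 3892 (H16R), 513 to 2220 (3x), 0 to 16 (H16R against WT IL-2, 715 at an unadjusted p under 0.05 in the fit with 0), 426 to 1992 (3x against WT IL-2), 18 to 479 (3x against H16R) and 2129 to 4969 from 3624 (block against isotype). With 2 mice a group, the Tcon comparisons are the least firm.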
